A study of Mus musculus with 16 samples.

Results

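Elapor1, Wfdc15b, Kif5c, Spink1, Bex1 and Tspan8 are 6 genes whose RNA stood out in mouse liver tumours with a mutation in Ha-ras. They were chosen by their measured level in those tumours, so their height there is a description and received no test. They are 6 of the 18193 genes that the array measured with a probe set of 1 gene symbol, and they are read by 14 probe sets, sets of short DNA probes for 1 transcript: 2 for Elapor1, 4 for Kif5c, 5 for Tspan8 and 1 each for Wfdc15b, Spink1 and Bex1. RNA of 16 pieces of liver from male C3H/HeJ mice was hybridised to Affymetrix arrays, 1 array per piece. According to the series design, all mice, including those that gave the control tissue, received 1 injection of the liver carcinogen diethylnitrosamine, at 10 or 90 µg per g body weight and at 2 or 6 weeks of age.

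The arrays formed 4 groups: 3 tumours with mutated Ha-ras and 3 untreated control livers, which received plain drinking water, and 7 tumours with mutated Ctnnb1, the gene of beta-catenin, and 3 control livers, which received phenobarbital, a barbiturate that promotes liver tumours in mice. The sample labels put phenobarbital in the drinking water for 27 weeks, the protocol text gives 28 days, and the design text gives a diet with 0.05% phenobarbital for 28 to 36 weeks. Age at death is given for no sample. Ha-ras tumours were compared with untreated controls and Ctnnb1 tumours with phenobarbital controls. Between the tumour types, mutation and phenobarbital cannot be told apart. The labels name no separate animals behind the arrays of a group, so the tests measure the spread between tissue samples, which may be partly technical.

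The members have unlike roles. Spink1, long called Spink3 in mice, is a secreted Kazal-type inhibitor of trypsin, best known from the acinar cells of the pancreas, and Wfdc15b is a small secreted protein with a WAP domain, a fold found in many protease inhibitors and antimicrobial proteins. Tspan8 is a tetraspanin, a membrane protein that gathers integrins and adhesion proteins into patches at the cell surface and on exosomes. Elapor1 is a transmembrane protein of endosomes and lysosomes. Kif5c is a heavy chain of kinesin-1, the motor that carries cargo along microtubules, and is best known from neurons. Bex1 is a small X-linked adaptor protein that binds the intracellular part of the neurotrophin receptor Ngfr. Ras proteins, when mutated at their usual sites, keep the ERK kinase cascade switched on.

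By the RefSeq annotation of GRCm38.p6, the members do not form a cluster in the genome. Elapor1 lies at chr3:108455679-108536745, Wfdc15b at chr2:164214454-164221663, Kif5c at chr2:49619286-49774778, Bex1 at chrX:136213972-136215513 and Tspan8 at chr10:115816817-115849893, and all members are protein coding. Promoter sequences, from 250 bases before to 50 bases after an annotated start, were taken for 5 of them, and no Spink1 promoter was searched. That start is the outer end of the gene given above for Wfdc15b, Kif5c and Bex1. For Elapor1 and Tspan8 it lies 204 and 467 bases inside the gene, so that 254 and 300 of the 300 bases searched are within it, and the sequence before their outermost start was not searched. They were searched on both strands for 7 motifs, because genes that are high together in 1 tumour type invite a look for shared letters. The AP-1 motif was searched as TGANTCA, the ETS motif as CCGGAAG, the CRE as TGACGTCA, the TATA box as TATAAA, the NF-Y motif as CCAAT, the STAT motif as TTCNNNGAA and the TCF/LEF motif as CTTTGAT. No motif occurred in more than 1 of these 5 members. The bases before the start are shown for Kif5c and Wfdc15b, the promoters with a match, with the matching letters in capitals:
Kif5c, chr2:49619036-49619285, plus strand: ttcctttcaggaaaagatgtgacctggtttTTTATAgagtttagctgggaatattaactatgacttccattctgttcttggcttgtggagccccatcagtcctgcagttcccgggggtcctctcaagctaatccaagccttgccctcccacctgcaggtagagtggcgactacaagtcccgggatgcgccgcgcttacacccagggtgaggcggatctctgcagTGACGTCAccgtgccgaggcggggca
Wfdc15b, chr2:164221664-164221913, minus strand: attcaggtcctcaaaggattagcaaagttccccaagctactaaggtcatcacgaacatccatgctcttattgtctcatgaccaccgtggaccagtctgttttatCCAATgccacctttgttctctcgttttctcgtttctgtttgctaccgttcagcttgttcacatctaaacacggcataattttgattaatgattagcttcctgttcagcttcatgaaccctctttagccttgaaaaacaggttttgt
In Kif5c the second run of capitals is the CRE sequence on the plus strand, starting 26 bases before the gene start, and the first run is the TATA box sequence read on the other strand, starting 220 bases before it. Wfdc15b has CCAAT 146 bases before its start. Of 32851 RefSeq promoters of the same length, 1.79% hold the CRE, 13.6% the TATA box and 37.4% the CCAAT letters. None of the 7 motifs was found in the windows of Elapor1, Bex1 and Tspan8, while 7.81% of all promoters hold TGANTCA, 8.86% CCGGAAG, 8.30% TTCNNNGAA and 3.73% CTTTGAT. A match is a run of letters, and binding was not measured.

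The deposited values are on a log2 scale, on which a step of 1 is a doubling of signal, and levels are given below for the probe set with the highest mean of each gene. Array medians lay between 5.03 and 5.10, and arrays correlated with each other at 0.952 to 0.993 over all genes. Phenobarbital control 6 had a gap of 2.70 between the Gapdh control probe sets for the 3′ and the 5′ end of its transcript, which reads RNA integrity, against −0.15 to 0.32 in the other 15 arrays. Marker genes of hepatocytes averaged 13.5 to 14.1 in every array. Each probe binds with its own strength, so levels are compared between arrays and not between genes. In pieces of tissue, more RNA per cell cannot be told apart from more cells of a type.

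In the Ha-ras tumours all 6 members were 20.2-fold to 37.6-fold above the untreated controls. Every Ha-ras tumour was above each of the other 13 arrays in 6 of 6 members and in 12 of 14 probe sets, a pattern found in 4.55% of all genes and 3.39% of all probe sets, from which nothing is read because the members were selected on these levels. The median log2 difference of the members was 5.00, and that of all genes −0.04.

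**Figure D1:**
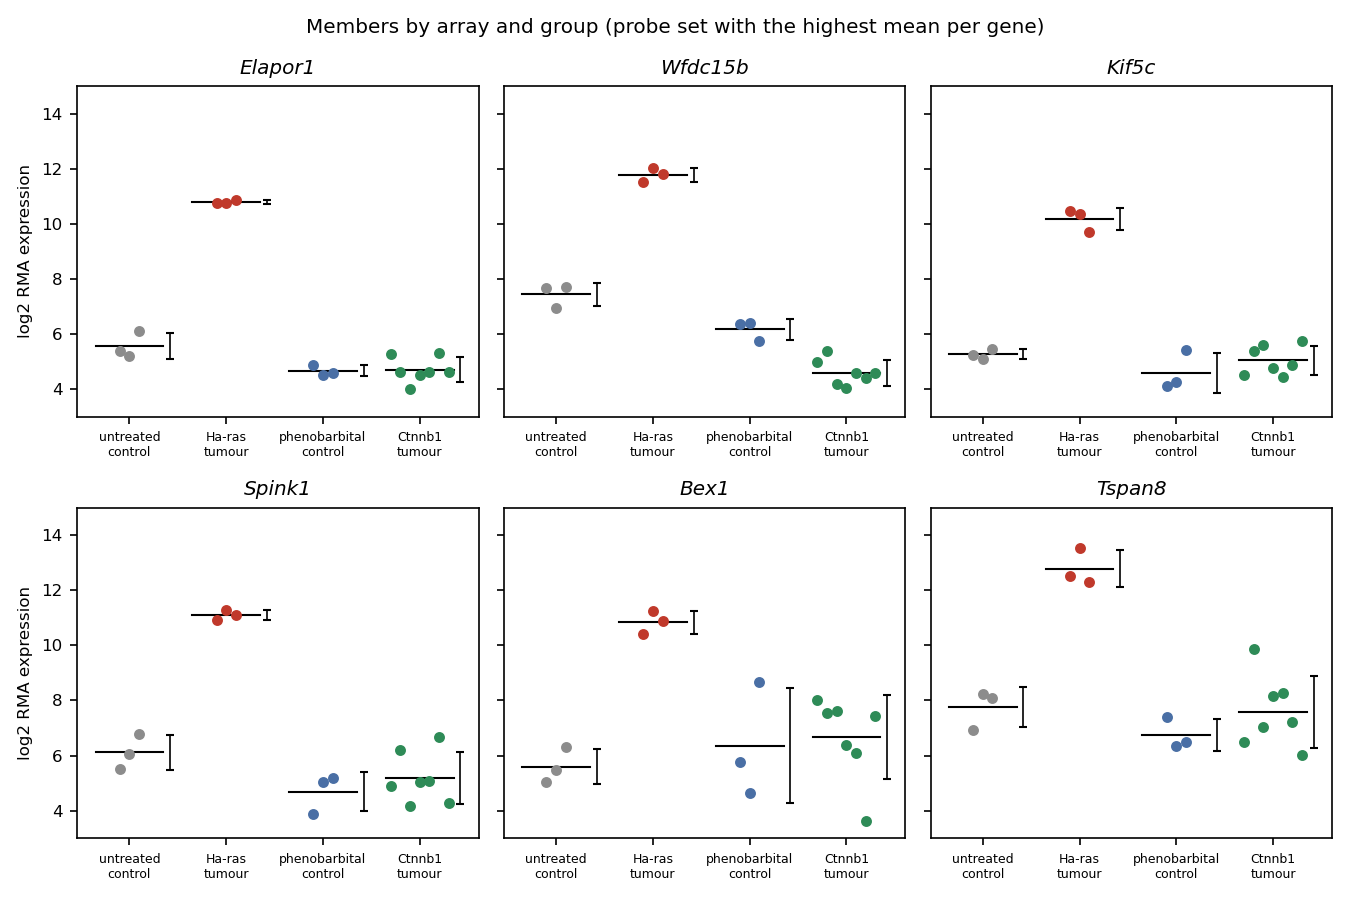
Level of the 6 members (log2 RMA expression, y axis) in each array by group; points are arrays, horizontal lines are group means and bars beside them are ± 1 SD (n = 3, 3, 3 and 7). The Ha-ras tumours lie above all 13 other arrays in each panel, and the spread of the other groups is narrow for Elapor1 and wide for Bex1 and Tspan8.

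Of the secreted inhibitors, Spink1 (chr18:43728069-43737237, GRCm38.p6) read 5.53, 6.06 and 6.79 in the untreated controls and 10.92, 11.29 and 11.09 in the Ha-ras tumours. Under phenobarbital it read 3.88, 5.03 and 5.18 in the controls, and the Ctnnb1 tumours ran from 4.17 through a median of 5.05 to 6.69. The 3 Ha-ras tumours lay within 0.37 of each other, and the lowest of them was 4.14 above the highest other array, untreated control 3. The mean was 6.12 ± 0.63 in the controls and 11.10 ± 0.19 in the tumours (SD, n = 3 each), a log2 difference of 4.98 ± 0.56 (SE of the fit), or 31.5-fold.

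Wfdc15b read 7.69, 6.96 and 7.69 in the untreated controls and 11.51, 12.02 and 11.82 in the Ha-ras tumours. Under phenobarbital the controls read 6.36, 6.42 and 5.73, and the Ctnnb1 tumours ran from 4.03 through a median of 4.57 to 5.40. The 4 groups thus formed 4 separate bands, with Ha-ras tumours highest, then untreated controls, phenobarbital controls and Ctnnb1 tumours. The difference between Ha-ras tumours (11.78 ± 0.26) and untreated controls (7.45 ± 0.42) was 4.33 ± 0.31, or 20.2-fold, the smallest among the members. Between the tumour types the mean differed 145-fold, the widest such ratio among the members, with treatment differing as well.

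Tspan8, the surface tetraspanin, read 6.93, 8.25 and 8.08 in the untreated controls and 12.51, 13.54 and 12.29 in the Ha-ras tumours. It read 7.40, 6.36 and 6.50 in the phenobarbital controls, and 6.03, 7.22 and 9.85 as the lowest, median and highest of the Ctnnb1 tumours. Ctnnb1 tumour 2 was the highest array outside the Ha-ras group and still lay 2.44 below the lowest Ha-ras tumour. The mean log2 level was 7.75 ± 0.72 in the controls and 12.78 ± 0.67 in the Ha-ras tumours, a difference of 5.03 ± 0.74 (32.6-fold). The 4 other probe sets of Tspan8 gave Ha-ras differences of 3.99, 2.20, 2.20 and 4.91. In all 5, Ha-ras tumour 2 was the highest array, at 13.54, 11.06, 8.65, 7.51 and 9.33 on the scale of each probe set.

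Elapor1, the endosomal and lysosomal membrane protein, had the tightest Ha-ras group of the members, at 10.75, 10.75 and 10.88. It read 5.40, 5.20 and 6.10 in the untreated controls, 4.89, 4.51 and 4.60 in the phenobarbital controls, and 4.02, 4.62 and 5.33 as the lowest, median and highest of the Ctnnb1 tumours. All 13 other arrays thus fell within 2.08 log2 units. The mean was 5.57 ± 0.47 in the untreated controls and 10.79 ± 0.08 in the Ha-ras tumours, a difference of 5.22 ± 0.28, or 37.4-fold. The second probe set read 8.52, 8.64 and 8.29 in the Ha-ras tumours, 19.1-fold above its untreated controls, with a gap of 3.61 to the highest other array.

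Kif5c, the motor subunit, read 5.25, 5.10 and 5.47 in the untreated controls and 10.45, 10.34 and 9.71 in the Ha-ras tumours. In the phenobarbital controls it read 4.11, 4.26 and 5.43, and the Ctnnb1 tumours had a lowest value of 4.44, a median of 4.87 and a highest of 5.74. The difference between Ha-ras tumours (10.17 ± 0.40) and untreated controls (5.28 ± 0.18) was 4.89 ± 0.37, or 29.7-fold. The 4 probe sets of Kif5c did not give the same picture. One more, 1422945_a_at, was high in the Ha-ras tumours (7.33, 7.90 and 7.28, 12.5-fold). The remaining pair was not, with differences of 0.19 for 1450804_at and 0.11 for 1457255_x_at. In 1450804_at the Ha-ras tumours read 4.70 to 4.86 and the highest other array, an untreated control, 4.71, so the groups overlapped, and in 1457255_x_at all 16 arrays read 2.06 to 2.47. Which transcript of Kif5c each probe set reads is not given in the sources used here.

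Bex1, the adaptor of the neurotrophin receptor, had the largest Ha-ras difference of all genes and the most uneven levels elsewhere. It read 5.04, 5.47 and 6.30 in the untreated controls and 10.39, 11.23 and 10.88 in the Ha-ras tumours, a difference of 5.23 ± 1.01, or 37.6-fold, between means of 5.60 ± 0.64 and 10.83 ± 0.42. The phenobarbital controls read 5.79, 4.63 and 8.69, and the highest of them was array 6, the one with the wide Gapdh gap. The Ctnnb1 tumours 1 to 7 read 8.02, 7.54, 7.62, 6.39, 6.08, 3.62 and 7.43. Bex1 was therefore spread over 4.40 log2 units among the Ctnnb1 tumours alone, and its gap of 1.71 between the lowest Ha-ras tumour and the highest other array was the smallest among the members. Bex1 and Bex2 are similar in sequence, so some of the signal may be shared between them.

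**Figure D2:**
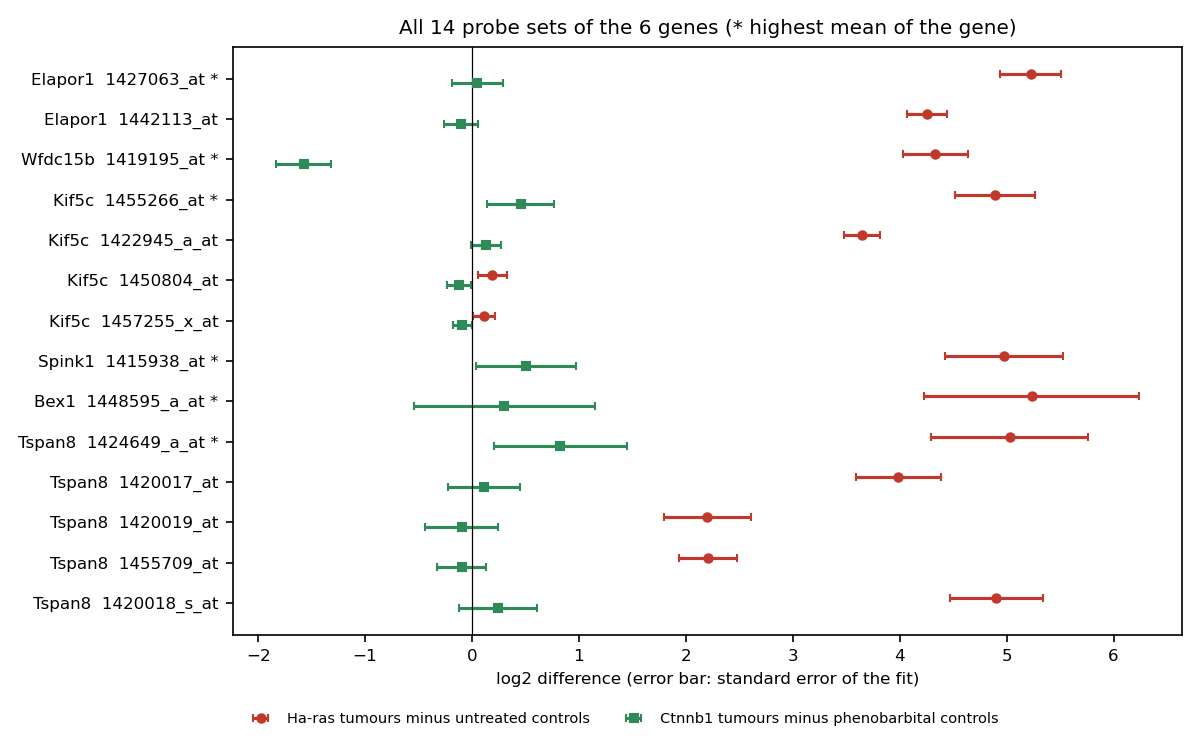
Log2 difference (x axis) of each of the 14 probe sets of the 6 genes, for Ha-ras tumours minus untreated controls (red circles) and Ctnnb1 tumours minus phenobarbital controls (green squares); bars are standard errors of the fit. All but 2 Kif5c probe sets lie between 2.20 and 5.23 in the Ha-ras comparison, and Wfdc15b alone lies well below 0 in the Ctnnb1 comparison, at −1.57.

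Ordered by the Ha-ras difference over all 18193 genes, the members took places 1 (Bex1), 2 (Elapor1), 4 (Tspan8), 5 (Spink1), 6 (Kif5c) and 15 (Wfdc15b). Akr1c18, an enzyme that inactivates progesterone, stood between Elapor1 and Tspan8 at 5.04, and Cidea, a lipid droplet protein, followed Kif5c at 4.72. Wfdc15b lay between Ly6d (4.37) and Tlr1 (4.33). With standard errors of 0.28 to 1.01, places 1 to 6 do not differ beyond their error. The gap between the lowest Ha-ras tumour and the highest of the other 13 arrays gave another order: Elapor1 was at place 1 with 4.65, Spink1 at 3 with 4.14, Kif5c at 4 with 3.96, Wfdc15b at 6 with 3.81, Tspan8 at 18 with 2.44 and Bex1 at 40 with 1.71. Ly6d, beside Wfdc15b by its difference, had a gap of −0.55, that is, its Ha-ras tumours overlapped the other arrays.

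**Figure D3:**
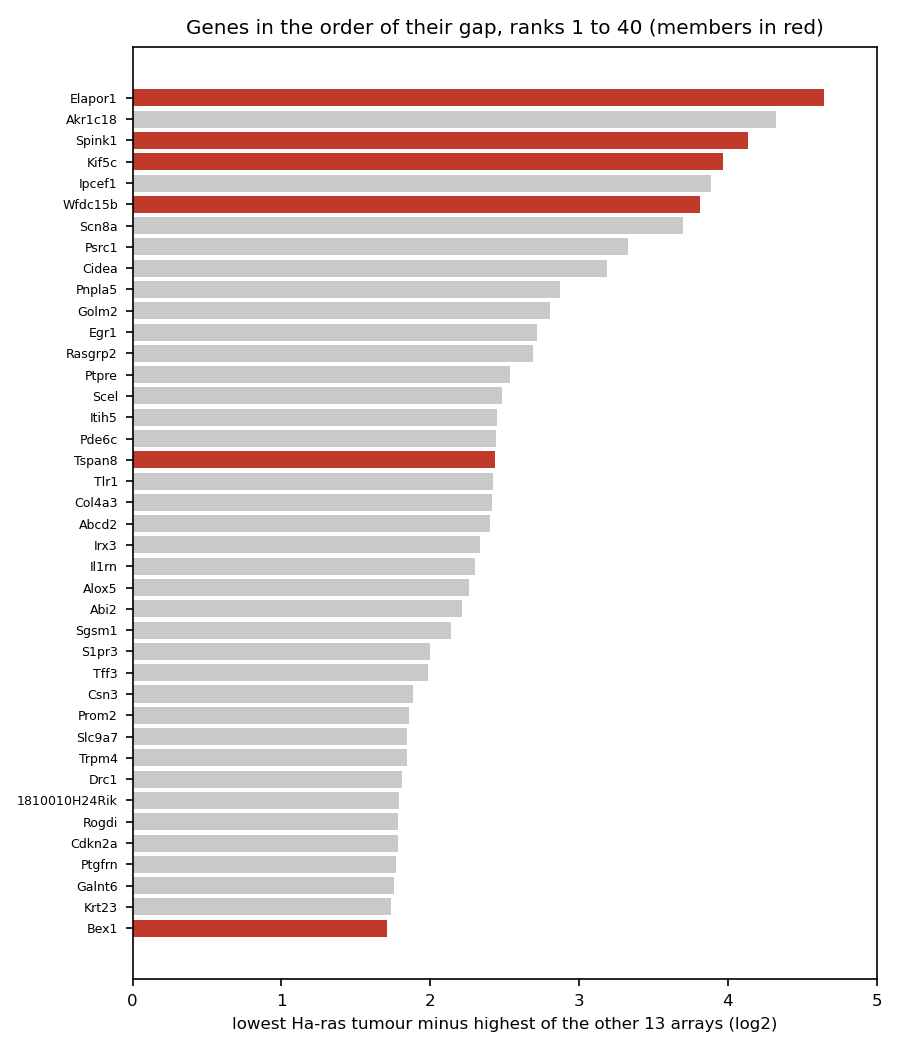
The 40 genes with the widest gap between the lowest Ha-ras tumour and the highest of the other 13 arrays (x axis, log2, from 0), members in red and other genes in grey. Elapor1 leads with 4.65, 3 further members are among the first 6, and Bex1 closes the list with 1.71.

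The Ctnnb1 tumours, in a comparison that holds no Ha-ras array, showed how the members behave in the other tumour type. Wfdc15b fell, and the other 5 members did not pass the test at an adjusted p under 0.05, while 6.07% of all genes rose and 5.97% fell in that comparison. The median difference of the members was 0.38, and that of all genes −0.03.

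Wfdc15b fell from 6.17 ± 0.38 (SD, n = 3) to 4.60 ± 0.47 (n = 7), a log2 difference of −1.57 ± 0.26 (95% interval −2.13 to −1.02, limma adjusted p = 0.00133), or 2.98-fold. All 7 tumours lay below all 3 controls, by at least 0.33, an arrangement found in 6.64% of genes. The call was kept in 21 of 21 alternative analyses, with differences of −1.83 to −1.45, and stood at −1.79 without phenobarbital control 6. Tested over all probe sets, of which 8.45% passed, it was also called (adjusted p = 0.00174).

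For Elapor1 the Ctnnb1 difference was 0.05 ± 0.24 (interval −0.46 to 0.56, limma adjusted p = 0.929). Kif5c stood at 0.46 ± 0.32 (interval −0.21 to 1.12, limma adjusted p = 0.389) and Spink1 at 0.50 ± 0.47 (interval −0.50 to 1.50, limma adjusted p = 0.546). With 1 array left out Kif5c ran from 0.21 without phenobarbital control 4 to 0.87 without control 6, and Spink1 from 0.09 without control 4 to 0.74 without control 6, and none of these passed. Tspan8 stood at 0.83 ± 0.62 (interval −0.49 to 2.15, limma adjusted p = 0.432), and at 0.45 without Ctnnb1 tumour 2, its highest array. These intervals include 0 and, for 3 of the 4 genes, also changes of more than 1 log2 unit, so such changes are not excluded with 7 and 3 arrays. Bex1 was the least certain, at 0.30 ± 0.85 (interval −1.51 to 2.11, limma adjusted p = 0.862). Its value was 1.46 without phenobarbital control 6 and −0.57 without control 5, and neither passed.

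Phenobarbital alone was compared between the control livers as a description, since the untreated controls also enter the contrast that chose the members. In 5 of 6 members the phenobarbital controls had the lower mean, a count whose share over all genes was not taken. The median difference was −0.95, or −0.47 with the mean of all probe sets of a gene. That of all genes was −0.02, so a lower mean alone is common. Spink1 was lower by a difference of −1.43 ± 0.56, Wfdc15b by −1.28 ± 0.31, Tspan8 by −1.0 ± 0.74, Elapor1 by −0.90 ± 0.28 and Kif5c by −0.68 ± 0.37. The 3 phenobarbital controls lay below all 3 untreated controls for Elapor1, Wfdc15b and Spink1, as they did in 9.44% of all genes, and the groups overlapped for Kif5c and Tspan8. Bex1 was the exception at 0.77 ± 1.01, with phenobarbital control 6 as its highest control.

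Within groups the members did not move as one. Ha-ras tumour 2 was the highest of its group for Wfdc15b, Spink1, Bex1 and Tspan8, tumour 1 for Kif5c and tumour 3 for Elapor1. Untreated control 3 was the highest of its group in 5 of 6 members, all but Tspan8. Among the Ctnnb1 tumours, tumours 2 and 6 were each the highest in 2 members and tumour 3 was the lowest in 2. Profiles were also compared by the mean absolute log2 difference over the 16 arrays after each gene was centred on its own mean. By this measure Elapor1 and Spink1 were the closest pair (0.46) and Wfdc15b and Bex1 the farthest (1.91), of 15 pairs.

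Relatives and partners of the members were taken from 7 lists, of which 106 of 126 genes were measured. The lists were written with earlier results of these data known. In the Ha-ras comparison 21 of the 106 rose (19.8%, where 7.21% of all genes rose), 9 fell (8.49%, where 6.33% of all genes fell) and 76 did not pass, with a median of −0.02. In the Ctnnb1 comparison 9 rose (8.49%), 7 fell (6.60%) and 90 did not pass, with a median of −0.05. The choice of probe sets moved several of the values given below. With the mean of all probe sets of a gene, the Ha-ras difference was 0.57 for Tspan9, 1.16 for Ptgfrn and −0.69 for Egfr, and the Ctnnb1 difference was −0.73 for Tspan33, −0.76 for Egfr, 0.52 for Sort1 and 0.79 for M6pr, all of which still passed. Under that choice Ptgfrn (−0.28), Ngfr (−0.23) and Trak2 (0.12) no longer passed in the Ctnnb1 comparison. With the most variable probe set, the Ha-ras difference of Tspan2 was 2.50 and the Ctnnb1 difference of M6pr 1.08. Fitted on the arrays of the groups compared alone, Wfdc17 no longer passed in the Ha-ras comparison, nor Trak2, Tspan12, Ngfr, M6pr and Tfeb in the Ctnnb1 comparison. With array weights Tspan12 did not pass and Cd9 stood at 0.82. When the Gapdh gap entered the fit as a covariate, Tspan33, Cd9, Tspan12, Itga6, Ptgfrn, Tceal8, Ngfr, Slpi, M6pr, Tfeb and Trak2 no longer passed in the Ctnnb1 comparison.

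**Figure D4:**
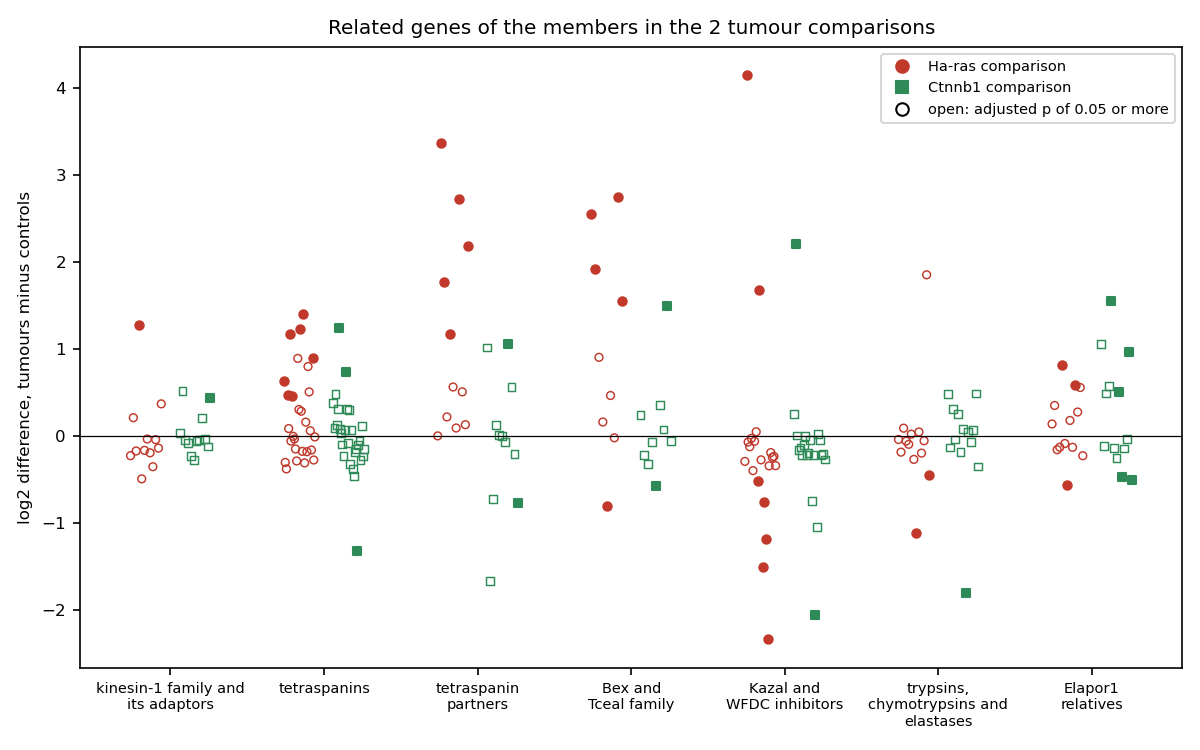
Log2 difference, tumours minus their controls (y axis), of the 106 measured related genes in 7 lists, for the Ha-ras comparison (red circles) and the Ctnnb1 comparison (green squares); filled symbols passed at an adjusted p under 0.05. Filled red symbols above 0 are most numerous among tetraspanins (7), their partners (5) and the Bex and Tceal genes (4), and Slpi is the highest point at 4.15.

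Of the Kazal and WFDC inhibitors, the kin of Spink1 and Wfdc15b, 2 of 20 measured genes rose and 5 fell in Ha-ras tumours (median −0.26). Slpi, a WAP-domain inhibitor of leukocyte elastase, read 9.01, 8.52 and 9.69 in the untreated controls and 13.12, 13.28 and 13.27 in the Ha-ras tumours. It rose by 4.15 ± 0.53 (limma adjusted p = 7.3e-05). Wfdc12 rose by 1.68 ± 0.23 (limma adjusted p = 0.000123), from 5.92, 5.97 and 5.97 to 7.33, 7.20 and 8.37. In both genes all 3 tumours lay above all 3 controls, an arrangement found in 16.3% of all genes.

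Other WAP-domain genes went the opposite way. Wfdc21 fell by 2.34 ± 0.43 on the log2 scale (limma adjusted p = 0.0015). Wfdc17 fell by 1.50 ± 0.46 (limma adjusted p = 0.0379), a call lost when any of the 3 untreated controls, Ha-ras tumour 1 or Ha-ras tumour 2 was left out, and its value was −0.96 without Ha-ras tumour 1. Wfdc2 (−1.19), Wfdc18 (−0.76) and Wfdc1 (−0.52) also fell, and are named after their values were seen. Wfdc15a, the gene most alike to Wfdc15b by name and also named afterwards, read 4.76, 4.64 and 4.11 in the Ha-ras tumours and 4.57, 4.84 and 4.92 in the untreated controls, at the dim end of the scale.

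In Ctnnb1 tumours 1 inhibitor of the list rose and 1 fell (median −0.18). Slpi rose there too, by 2.20 ± 0.45 (limma adjusted p = 0.00511). Wfdc2, a WAP-domain protein of epithelia, fell by 2.05 ± 0.23 (limma adjusted p = 9.44e-05), with tumours at 5.12 to 6.26 and controls at 8.0, 7.73 and 7.03. The Slpi changes of the tumour types did not differ past the threshold (difference 1.95 ± 0.69, limma adjusted p = 0.13), whereas those of Wfdc12 did (1.87 ± 0.30, limma adjusted p = 0.00126). Of the 30 related genes named for passing in 1 or both comparisons, 14 passed this test of the difference. Over all genes 3.29% passed with the higher change in Ha-ras and 2.14% with the higher change in Ctnnb1 tumours. The 30 were named for large changes in the comparisons that make up the difference, so nothing is read from their count.

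Trypsins, chymotrypsins and elastases, the targets of such inhibitors, were listed together with Egfr, Tmprss6 and the receptor F2rl1. Of the 13 measured genes of this list, 0 rose in either comparison. In Ha-ras tumours 2 fell. Egfr, a receptor tyrosine kinase that stands on this list only as a reported binding partner of Spink1 and is no protease, fell by 1.11 ± 0.27 (limma adjusted p = 0.0114), a call lost without untreated control 2 or Ha-ras tumour 2. Tmprss6, a membrane protease of hepatocytes, fell by 0.45 ± 0.14 (limma adjusted p = 0.0431) and passed in 6 of 17 alternatives, not without any 1 of the 6 arrays compared. Egfr also fell in Ctnnb1 tumours, by 1.80 ± 0.23 (limma adjusted p = 0.000202), from 12.33, 11.27 and 11.44 to 9.42 to 10.37. The trypsin genes Prss2 and Prss3, named afterwards, stood at −0.19 ± 0.15 and −0.05 ± 0.11 in the Ha-ras comparison and did not pass. In the Ha-ras tumours Prss2 read 4.98, 5.48 and 5.39 and Prss3 3.04, 3.02 and 2.80, low values that include background.

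Of 28 measured tetraspanins, 7 rose and none fell in Ha-ras tumours (median 0.08). Tspan2, known from myelin-forming cells, rose by 1.41 ± 0.24 (limma adjusted p = 0.000775), with controls at 6.04, 6.22 and 6.23 and tumours at 7.66, 8.05 and 6.99. Tspan15, which guides the sheddase Adam10, rose by 1.23 ± 0.20 (limma adjusted p = 0.000529). Cd9, a widely expressed tetraspanin, rose by 1.17 ± 0.30 (limma adjusted p = 0.0158), and passed in 14 of 17 alternatives, not without untreated control 1, Ha-ras tumour 1 or Ha-ras tumour 2. Tspan9 rose by 0.90 ± 0.14 (limma adjusted p = 0.000341). The remaining 3 were Cd151, Cd81 and Rom1, at 0.64, 0.47 and 0.46, named after their values were seen. All of these steps were smaller than that of Tspan8 (5.03), which was chosen for its size.

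In Ctnnb1 tumours 2 tetraspanins rose and 1 fell. Cd9 rose by 1.24 ± 0.25 (limma adjusted p = 0.00528), or 0.80 without phenobarbital control 6, and the changes differed by −0.07 ± 0.39 (limma adjusted p = 0.956). Tspan12, a co-receptor of Frizzled signalling in vessels, rose by 0.74 ± 0.20 (limma adjusted p = 0.0263) and passed in 15 of 21 alternatives, not without phenobarbital control 4 or 6, with 0.46 without the latter. Tspan33, another Adam10 partner, fell by 1.32 ± 0.27 (limma adjusted p = 0.00518). For Tspan33 the changes against the controls differed between the tumour types by 2.12 ± 0.42 (limma adjusted p = 0.00597). Its Ha-ras tumours read 7.51, 8.35 and 8.47 and its Ctnnb1 tumours 5.20 to 6.36. Tspan2, Tspan15 and Tspan9 had larger changes in Ha-ras than in Ctnnb1 tumours, by 1.78, 0.93 and 0.78 (limma adjusted p = 0.00247, 0.0461 and 0.0172).

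Of the 11 genes of proteins that tetraspanins bind or gather, 5 rose in RNA and none fell in Ha-ras tumours (median 0.57). Cdh1, the adhesion protein E-cadherin, rose by 3.38 ± 0.72 (limma adjusted p = 0.00452), although its controls were uneven at 6.34, 8.75 and 8.10 against 11.08, 11.35 and 10.90 in the tumours. Itga6, a laminin receptor chain, rose by 2.73 ± 0.23 (limma adjusted p = 1.3e-06), from 5.86, 5.35 and 5.97 to 8.67, 8.25 and 8.46. Ptgfrn, a direct partner of Cd9 and Cd81, rose by 2.19 ± 0.22 (limma adjusted p = 7.44e-06), from 5.85, 5.87 and 6.11 to 8.39, 8.02 and 8.0. Cldn7, a claudin of epithelia, rose by 1.78 ± 0.33 (limma adjusted p = 0.00168) and was uneven among tumours at 5.59, 7.53 and 6.64. The fifth was Igsf8, a relative of Ptgfrn, at 1.17, named after its value was seen. The integrin chain Itgb1 (0.51 ± 0.30) and the adhesion protein Epcam (0.22 ± 0.21), also named afterwards, did not pass.

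In Ctnnb1 tumours Itga6 rose by 1.06 ± 0.19 (limma adjusted p = 0.00249) and Ptgfrn fell by 0.76 ± 0.19 (limma adjusted p = 0.0144). The Ptgfrn call was also lost without phenobarbital control 6, at −0.51. All 4 named partners changed more in Ha-ras than in Ctnnb1 tumours: Cdh1 by 5.05 ± 0.94, Ptgfrn by 2.95 ± 0.29, Cldn7 by 2.50 ± 0.43 and Itga6 by 1.67 ± 0.30 (limma adjusted p = 0.00412, 1.52e-05, 0.00247 and 0.00296). The phenobarbital controls of Cdh1 read 9.94, 8.95 and 9.93, each above the 3 untreated controls (9.4% of all genes had this arrangement), and its Ctnnb1 tumours read 5.70 to 9.38.

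The Bex and Tceal genes are small, mostly X-linked relatives of Bex1, and 4 of 9 measured rose in Ha-ras tumours while 1 fell (median 0.91). Tceal8 rose by 2.75 ± 0.43 (limma adjusted p = 0.000445), from 7.78, 7.54 and 7.05 to 10.15, 10.43 and 10.04. Bex2, the closest relative, rose by 2.55 ± 0.24 (limma adjusted p = 3.96e-06), from 3.97, 4.29 and 4.30 to 6.19, 7.15 and 6.87. Bex3, a binder of Ngfr, rose by 1.92 ± 0.17 (limma adjusted p = 2.99e-06), with controls at 7.23, 7.28 and 7.50 and tumours at 9.12, 9.68 and 8.98. Tceal9 rose by 1.56 ± 0.18 (limma adjusted p = 3.58e-05). In Bex1, Bex2, Bex3, Tceal8 and Tceal9 alike, Ha-ras tumour 2 was the highest of the 3. Outside this family it was also the highest in Slpi, Tspan2, Cd9, Cdh1 and Cldn7, but not in Itga6 or Ptgfrn. The share of all genes with this order was not counted, so nothing is read from it. The gene that fell was Ngfr, the receptor itself, at −0.80 (limma adjusted p = 0.0103), named after its value was seen.

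In Ctnnb1 tumours Tceal8 rose by 1.49 ± 0.37 (limma adjusted p = 0.0153), not without phenobarbital control 6, and Ngfr fell by 0.57 ± 0.16 (limma adjusted p = 0.0311) in 12 of 20 alternatives, and was lost without any 1 of Ctnnb1 tumours 4 and 6 and phenobarbital controls 4 and 6. Bex2 (0.25), Bex3 (−0.22) and Tceal9 (−0.06) did not pass there. The difference between the changes of the tumour types passed for Bex2 (2.31 ± 0.31), Bex3 (2.14 ± 0.23) and Tceal9 (1.61 ± 0.24), with limma adjusted p = 0.00033, 3.72e-05 and 0.000706. It did not pass for Tceal8 (1.26 ± 0.57, limma adjusted p = 0.247).

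Of the kinesin-1 genes and adaptors, 1 of 12 measured rose in each comparison and none fell (medians −0.15 and −0.04). Klc3, a light chain that couples the motor to cargo, rose by 1.28 ± 0.20 in Ha-ras tumours (limma adjusted p = 0.000389), from 4.80, 5.10 and 5.34 to 6.60, 6.50 and 6.00, and its change was larger than in Ctnnb1 tumours by 1.36 ± 0.26 (limma adjusted p = 0.00494). Trak2, an adaptor that links the motor to mitochondria, rose by 0.44 ± 0.13 in Ctnnb1 tumours (limma adjusted p = 0.0317) in 13 of 21 alternatives, not without Ctnnb1 tumour 3 or phenobarbital controls 4 or 5, and its sign turned to −0.21 with its most variable probe set. The other heavy chains, Kif5a and Kif5b, named afterwards, stood at −0.22 ± 0.16 and 0.21 ± 0.28 in the Ha-ras comparison and did not pass. Kif5c was thus the heavy chain that stood out, and it was chosen for doing so.

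Of 13 genes related to Elapor1 by a mannose 6-phosphate receptor homology (MRH) domain or by work in lysosomal sorting, 2 rose and 1 fell in Ha-ras tumours (median 0.14), and 3 rose and 2 fell in Ctnnb1 tumours (median −0.03). Igf2r, which carries lysosomal enzymes, rose in both, by 0.82 ± 0.20 in Ha-ras (limma adjusted p = 0.013) and 1.55 ± 0.17 in Ctnnb1 tumours (limma adjusted p = 9.42e-05). The Ha-ras call was lost without untreated control 3 or Ha-ras tumour 2. Prkcsh, the beta subunit of glucosidase II in the endoplasmic reticulum, rose by 0.59 ± 0.11 in Ha-ras tumours (limma adjusted p = 0.00214) and had a larger change there than in Ctnnb1 tumours, by 0.73 ± 0.15 (limma adjusted p = 0.00737). Lamp2, a protein of the lysosomal membrane, fell by 0.57 ± 0.15 in Ha-ras tumours (limma adjusted p = 0.0167) in 12 of 17 alternatives, not without untreated controls 2 or 3 or Ha-ras tumour 1.

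In Ctnnb1 tumours the sorting receptor Sort1 rose by 0.96 ± 0.19 (limma adjusted p = 0.00419) and M6pr, the smaller mannose 6-phosphate receptor, by 0.51 ± 0.13 (limma adjusted p = 0.0158). With the replicate number as a block in the fit, Sort1 stood at 0.79 and did not pass. Tfeb, a transcription factor of lysosomal genes, fell by 0.51 ± 0.14 (limma adjusted p = 0.0303). The M6pr and Tfeb calls were lost without phenobarbital control 6, at 0.32 and −0.25, and that of Tfeb also without Ctnnb1 tumour 4. The other gene that fell, named after its value was seen, was Os9, an endoplasmic reticulum lectin, at −0.47. Elapor2, the closest relative of Elapor1 and named afterwards, read 2.77, 2.79 and 2.93 in the Ha-ras tumours and 2.49, 2.90 and 2.67 in the untreated controls, and ran from 2.85 to 5.02 in the Ctnnb1 tumours (difference 1.06 ± 0.36, limma adjusted p = 0.0661).

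Because several members are textbook genes of other tissues, markers of other cell types were read beside them, 87 of 95 listed genes. Of the 8 measured genes of pancreatic acinar cells, where Spink1 is made, 0 rose and 1 fell in Ha-ras tumours, and their mean was 5.29 to 5.46 in untreated controls and 5.05 to 5.26 in Ha-ras tumours. Of 12 neuron and neuroendocrine genes, the setting of Kif5c and Bex1, 0 rose and 0 fell, with means of 3.98 to 4.05 and 3.93 to 3.98. Of 13 genes of stomach and gut epithelium, where Tspan8 is known, 1 rose: Tff3, a secreted trefoil peptide, by 4.50 ± 0.68, from 8.13, 8.61 and 9.61 to 12.87, 13.52 and 13.46. The mean of that list was 5.74 to 5.98 in the controls and 6.26 to 6.61 in the tumours. The median difference of its genes was 0.06, against −0.04 for all genes, so the list did not rise as a set. In the Ctnnb1 comparison 1 of the 13 rose. Of 8 kidney tubule genes 1 rose, Slc12a1, named after its value was seen, by 1.83, from 3.18, 3.07 and 3.26 to 3.50, 5.24 and 6.25.

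Of the cell types of liver itself, the bile duct was read by 5 measured genes, of which 0 were called in Ha-ras tumours, with means of 4.47 to 4.61 in untreated controls and 4.45 to 4.57 in tumours. In the Ha-ras comparison 3 of 10 stellate and fibroblast genes fell, 3 of 8 macrophage genes fell, and 0 of 8 endothelial and 0 of 7 lymphocyte genes were called. Summed marker signal on the log2 scale was 12.60 to 12.64 in untreated controls and 11.59 to 12.46 in Ha-ras tumours for stellate cells, and 12.09 to 12.73 and 10.63 to 12.68 for macrophages. The part of these shifts in the members' levels was not tested. Of 8 hepatocyte genes 1 rose, and their mean was 13.99 to 14.04 in the controls and 14.08 to 14.13 in the Ha-ras tumours.

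The genes whose profile over the 16 arrays was most like the mean of the members, among 6903 that spanned at least 1 log2 unit, were Ipcef1 (mean absolute difference 0.39), Cidea (0.40), Scn8a (0.47), Psrc1 (0.55), Akr1c18 (0.57), Pde6c (0.60), Pnpla5 (0.64) and Rasgrp2 (0.68). Ipcef1, an adaptor of cytohesins, read 5.07, 4.46 and 5.35 in the untreated controls, 9.46, 9.81 and 9.24 in the Ha-ras tumours, and 3.92 to 5.24 in the Ctnnb1 tumours. Cidea, the lipid droplet protein, read 4.14, 4.23 and 4.31 in the untreated controls and 9.05, 9.65 and 8.14 in the Ha-ras tumours. These genes share the jump in the Ha-ras tumours, by which likeness was scored, and it carries no test.

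Single members had their own neighbours. Ipcef1 was nearest to Elapor1 (0.41), Kif5c (0.38) and Spink1 (0.56), with Akr1c18, Psrc1, Cidea and Scn8a behind it, and Cidea was nearest to Tspan8 (0.75). Bex1 was nearest to Tlr1 (0.78), a receptor of the innate immune system, followed by Cidea and Tff3. Wfdc15b was nearest to Rasgrp2 (0.75), an exchange factor for small GTPases, followed by Akr1c18 and by Rdh16f2, a retinol dehydrogenase relative. Rasgrp2 read 4.60 to 5.41 in the Ctnnb1 tumours, against 6.84, 6.32 and 5.71 in the phenobarbital controls and 10.20, 10.51 and 9.71 in the Ha-ras tumours. Rdh16f2 read 5.62 to 7.88 in the Ctnnb1 tumours, 9.55, 11.06 and 10.30 in the phenobarbital controls and 12.45, 12.79 and 12.20 in the Ha-ras tumours. Both were low in the Ctnnb1 tumours like Wfdc15b, a pattern that was part of how likeness was scored.

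**Figure D5:**
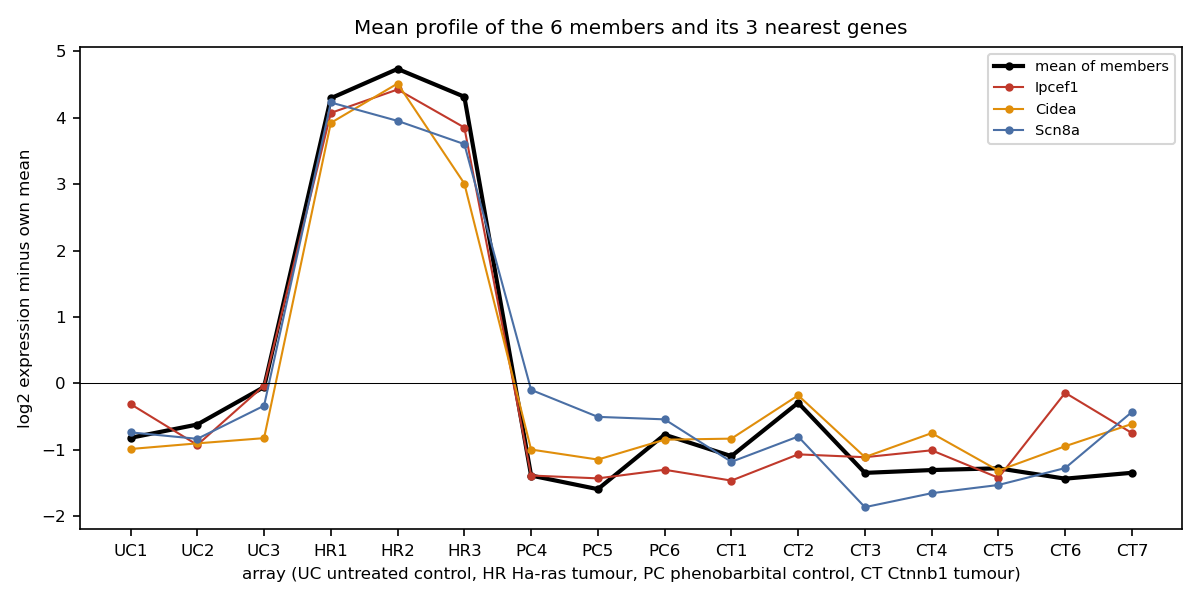
Mean profile of the 6 members (black) and of the 3 genes most like it, Ipcef1, Cidea and Scn8a, over the 16 arrays (x axis), each as log2 expression minus its own mean (y axis); lines join arrays of all groups only to aid the eye. All 4 profiles are high in the 3 Ha-ras tumours and near or below 0 in the other 13 arrays.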

How the data were processed

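RNA from 16 liver samples was read on Affymetrix arrays, 1 array per sample. Per the submitters' processing notes, the deposited values are log2 intensities after RMA (background correction, quantile normalization and probe summary), made by the authors in R 2.14.1. They were read as deposited. Low values include background, and no detection calls were used. Probe sets were named from the platform's annotation: of 45101, 64 were array controls, 34945 had 1 symbol, 932 several and 9160 none. Loci and promoters are from RefSeq for GRCm38.p6; the build of the array's own design is not given in the sources used here.

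Where a gene had several probe sets, that of highest mean over all arrays was kept, giving 18193 genes. Differences, standard errors and tests are from limma 3.58.1 in R 4.3.3 (statmod 1.5.0), with 1 coefficient per group over all 16 arrays and eBayes. Genes passed at p under 0.05 after Benjamini-Hochberg adjustment across the whole table, and "rose" and "fell" are used of related genes that passed. In the Ha-ras comparison the members, which were picked on those levels, have values and no test. The difference between the tumour comparisons was tested as an interaction for related genes alone. The script was tested on simulated data.

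The members and the gene lists were chosen with earlier results of these data known. Named genes are the members, up to 4 passing genes per list and comparison by size of change, the genes nearest in profile, and the neighbours of each member in the order of the Ha-ras difference; exceptions are marked. Alternatives were another probe set, a filter on dim genes, further normalization, other fits, the Gapdh gap as a covariate, the replicate number as a block, a threshold of 0.01 and each array left out. After the data were seen, the Ha-ras comparison without phenobarbital control 6 and the single members under the settings for counts were added. Hras itself is not reported here. The number of arrays limits the precision.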

Additional observations from a re-analysis of the deposited data

Results flagged for a closer look

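Of 44 sets of 7 Ctnnb1 tumours examined, 1 for each probe set or gene named, 5 had a single tumour far from the other 6. For a single set of normally spread values, chance gives about 1 in 20. The sets share the same 7 tumours and some are probe sets of 1 gene, so their count is not read against that rate. Ctnnb1 tumour 2 stood high in 2 of the 5 probe sets of Tspan8, 1420019_at with 5.77 and 1455709_at with 5.02, and in Wfdc2 with 6.26. Cd9 was high in Ctnnb1 tumour 7 with 11.49, and Lamp2 in Ctnnb1 tumour 5 with 12.998.

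In Wfdc15b every Ha-ras tumour lay above its controls and every Ctnnb1 tumour below its own, and the changes were 5.91 apart on the log2 scale. The changes of the other 5 members were 4.20 to 5.18 apart. These differences were not tested, since the Ha-ras values chose the genes. Of the 30 related genes named because they passed in 1 or both comparisons, 14 passed the limma interaction test over all genes. Among the partners of tetraspanins it was 5.05 for Cdh1, 2.95 for Ptgfrn, 2.50 for Cldn7 and 1.67 for Itga6. Among tetraspanins it was 2.12 for Tspan33, 1.78 for Tspan2, 0.93 for Tspan15 and 0.78 for Tspan9. It was 2.31 for Bex2, 2.14 for Bex3 and 1.61 for Tceal9, and 1.87 for Wfdc12, 1.36 for Klc3 and 0.73 for Prkcsh. The Ha-ras tumours had the higher change in these 14, which were named on the same values, so their count and direction are a description. Mutation and phenobarbital cannot be told apart in these differences.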

How the results depend on the processing

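One member passed in the Ctnnb1 comparison under all 22 alternatives, Wfdc15b, and the other 5 passed under none. Their signs were less firm. Elapor1 turned to −0.102 with its second probe set, −0.027 with the mean of probe sets, −0.012 with array weights, −0.043 without Ctnnb1 tumour 1, −0.054 without Ctnnb1 tumour 6 and −0.029 without phenobarbital control 5, and ran from −0.054 to 0.164 with 1 array left out. Kif5c turned to −0.122 and −0.0911 with the probe sets that did not separate the Ha-ras tumours, and Tspan8 to −0.0942 with 1420019_at and −0.095 with 1455709_at. Bex1 turned to −1.0 with the replicate block and −0.57 without phenobarbital control 5, and ran from −0.57 to 1.46 with 1 array left out. The cause was not tested. The median Ha-ras difference of 5.00 was 4.54 with the mean of all probe sets, and 4.78 to 5.25 with 1 array left out. The median Ctnnb1 difference of 0.38 was 0.85 with the Gapdh covariate and 0.13 to 0.72 with 1 array left out. The median phenobarbital difference of −0.95 was −0.47 with the mean of probe sets and −1.07 to −0.74 with 1 array left out. Related genes passing in the Ha-ras comparison numbered 30, 19 at an adjusted p under 0.01 and 21 to 29 with 1 array of that comparison left out. They numbered 34 without phenobarbital control 6, which is not in that comparison and was left out only after the data were seen. In the Ctnnb1 comparison they numbered 16, 7 with the Gapdh covariate, 8 at an adjusted p under 0.01 and 12 to 18 with 1 array left out.

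The labels number tumours and controls alike in part. Deviations of samples with the same number correlated at 0.03, 0.40 and 0.24 between Ha-ras tumours and controls. The highest correlations of these tumours with a control of another number were 0.07, −0.10 and 0.07. In the phenobarbital groups the same number gave 0.13, 0.09 and −0.12, and other numbers at most 0.15, 0.04 and 0.15. With so few samples, whether the numbers pair them cannot be decided. With the replicate block 27 related genes passed in the Ha-ras and 7 in the Ctnnb1 comparison, the median member differences were 5.00 and 0.13, and Wfdc15b kept its call at −1.83. Of the related genes named for passing, Tmprss6 and Lamp2 lost their Ha-ras call with the block. Trak2, Cd9, Tspan12, Ptgfrn, Ngfr, Sort1, M6pr and Tfeb lost their Ctnnb1 call. The block could not be fitted between the controls, which share no number. Precision is limited by 3 arrays in 3 of 4 groups. For the 5 members that did not pass, changes inside the intervals given are not excluded.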
